A study of Mus musculus with 4 samples.

Results

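The genes described here encode the enzymes that oxidise and conjugate drugs, other foreign compounds and steroids. They were taken by name: every gene probe whose name in the array files begins with Cyp1, Cyp2, Cyp3, Cyp4, Ugt1, Ugt2, Gsta, Gstm, Gstp, Gstt, Gsto or Sult. This gave 170 probes for 125 of the 27080 genes named on the array. Because the rule reads only the start of a name, it also takes in 13 genes of the Cyp11 to Cyp46 families, most of which act on steroids, sterols, vitamin D or retinoic acid. By family there were 3 Cyp1, 10 Cyp2a and Cyp2b, 11 Cyp2c, 7 Cyp2d, 5 Cyp2j, 7 other Cyp2, 7 Cyp3a, 16 Cyp4, 3 Ugt1, 9 Ugt2, 4 Gsta, 7 Gstm, 2 Gsto, 1 Gstp, 4 Gstt, 6 Sult1 and 10 Sult2 to Sult6 genes.

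Comparisons in the mouse colon were measured, each on a pair of dual-color whole genome arrays with the dyes reversed. The first set Axin2+ against Axin2- cells. *Axin2* is a target gene of Wnt signaling that marks the lower crypt, and cells were taken from Axin2CreErt2/Rosa26-tdTomato mice 24 h after tamoxifen, which turns on tdTomato in cells that express *Axin2*, and were sorted as live ESA+ (epithelial) cells with or without tdTomato. Cells of 3 mice were pooled, and both arrays carried the same RNA, so this comparison is 1 replicate, has no replicate check and gets no p-value. The second set distal colon of *Rspo3* KO mice (Myh11CreErt2/Rspo3 fl/fl) against control mice (Myh11CreErt2/Rspo3+/+) 2 weeks after tamoxifen, with 1 mouse per channel and n = 2 pairs of mice. Both KO and control mice carried the Myh11-driven Cre and received tamoxifen, and the gene is deleted only in Myh11-expressing cells, so *Rspo3* made elsewhere is left. Mice were C57BL/6 males of 6 to 8 weeks, and tamoxifen was given at 4 mg per 25 g of body weight. The labels name distal colon for the KO experiment, whereas the study's methods name colon in one place and colon epithelium in another.

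Removal of foreign compounds and steroids runs in stages. Cytochrome P450 enzymes (Cyp) of the endoplasmic reticulum oxidise the compound, using electrons from the reductase *Por*. UDP-glucuronosyltransferases (Ugt) then attach glucuronic acid, glutathione S-transferases (Gst) attach glutathione, and sulfotransferases (Sult) attach sulfate, and transporters carry the product out of the cell. The same families act on hormones, bile acids and fatty acid mediators. In the intestine they are best known from the mature absorptive cells that face the lumen.

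The arrays behaved differently in the 2 experiments, and this bears on every result below. Over all genes measured, the log2 ratios of the 2 Axin2 arrays had a Pearson r of 0.92, as repeat measurements of 1 RNA, while those of the 2 *Rspo3* KO pairs had an r of 0.03. Between 53.1% and 60.3% of gene spots were well above background per channel, and no probe of an enzyme gene was saturated. In the sorted cells, *Lgr5* (mean log2 ratio 1.53) and *Axin2* (1.32) stood higher in the Axin2+ pool and the surface keratin *Krt20* (-2.89) lower. In the KO arrays the check of the targeted gene was not possible, since of its 2 probes 1 reached the background limit in 0 of 4 channels and the other in 2 of 4. *Lgr5* was not well above background in either KO mouse. Its ratios were -1.28 and -2.61, and in the mean of the pairs it was at least 3.85-fold lower than in the control mice. Its second probe reached the background limit in 0 of 4 channels.

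A gene counts here as measured if, on each of the 2 arrays of an experiment, its brightest probe exceeded background clearly in 1 channel or both. In the Axin2 arrays 79 of the 125 enzyme genes were measured, and in the KO arrays 70 were. Both experiments measured 62 of them, 17 were measured only in the Axin2 arrays, 8 only in the KO arrays and 38 in neither. Of all 27080 genes, 15767 were measured in the Axin2 arrays, 15284 in the KO arrays and 13546 in both, so many other genes were also not measured. The 38 include enzymes known best from the liver, such as *Cyp1a2*, *Cyp2e1*, *Cyp3a25*, *Cyp2a5* and *Cyp2a12*, and enzymes of steroid-making glands, such as *Cyp11a1*, *Cyp11b2* and *Cyp19a1* (aromatase). No statement on these genes can be made from the arrays.

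Family members are close copies, and many probes cannot tell them apart. The files list 34 of the 170 probes for several genes, 124 for 1 gene and 12 for no RefSeq gene, and 15 of the 79 genes measured in the Axin2 arrays rest on a probe listed for several. The 60-base probes below show this, in the order of the transcript strand. The run that the *Cyp2d9* probes have in common, and the run that the *Gsta1* and *Gsta2* probes have in common, are in capitals.
Cyp2d9 first probe: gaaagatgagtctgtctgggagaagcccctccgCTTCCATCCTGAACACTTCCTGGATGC
Cyp2d9 second probe: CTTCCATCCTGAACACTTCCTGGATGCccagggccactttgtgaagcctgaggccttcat
Gsta1: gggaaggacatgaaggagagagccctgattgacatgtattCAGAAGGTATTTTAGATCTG
Gsta2: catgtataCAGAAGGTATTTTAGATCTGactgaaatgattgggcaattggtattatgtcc
Cyp2c29: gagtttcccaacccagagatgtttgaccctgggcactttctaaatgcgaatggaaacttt
Ugt2b36: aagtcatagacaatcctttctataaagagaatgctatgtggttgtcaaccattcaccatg
Ugt2b38: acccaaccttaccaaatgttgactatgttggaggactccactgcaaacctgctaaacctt
The *Cyp2d9* probes overlap by 27 bases, yet in mm9 the files place the first at chr15:82286799-82286858 on the plus strand and the second at chr15:82608654-82608713 on the minus strand, and list them for 2 and 4 Cyp2d genes. The *Gsta1* and *Gsta2* probes come from neighbouring genes (mm9 chr9:78083844-78087325 on the plus strand and chr9:78181644-78181703 on the minus strand) and read the same stretch of transcript over 28 bases with 1 mismatch. Both are listed for the same 4 genes, so their values are best read as those of a *Gsta1* and *Gsta2* group. The *Cyp2c29* probe (chr19:39403642-39403701, plus strand) is listed for 1 gene. The *Ugt2b36* probe (chr5:87495455-87509913, minus strand, across an intron) is listed for 2 genes and the *Ugt2b38* probe (chr5:87850627-87850686, minus strand) for 3. The families lie in clusters, with all 11 Cyp2c genes on chromosome 19, all 7 Cyp2d on chromosome 15, all 9 Ugt2 on chromosome 5 and all 7 Gstm on chromosome 3.

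Axin2+ cells had lower levels of many of these enzymes than Axin2- cells, among them 6 of 8 measured Cyp2c and 6 of 7 Cyp2d oxidases and *Cyp3a13*. Few were higher, namely *Ugt2b35*, *Sult1a1*, *Gstm3*, *Cyp39a1* and *Ugt2b38*. Of the 79 measured, 24 were lower in Axin2+ cells by more than 1.5-fold in the mean with both arrays alike, which is 30.4%, against 6.98% of all 15767 genes measured. The 5 higher by this rule are 6.33%, near the 7.84% of all genes. On both arrays 53 were lower and 16 higher, and 10 went opposite ways. The median log2 ratio of the 79 was -0.25, against -0.0062 over all genes. By the array medians in place of the loess curve, which depends on signal, 22 were lower and 0 higher. The shares of all genes were then 3.74% lower and 3.08% higher. When probes listed for several genes were left out, 18 of 64 were lower and 4 higher, against 6.95% and 7.84% of all genes.

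**Figure D1:**
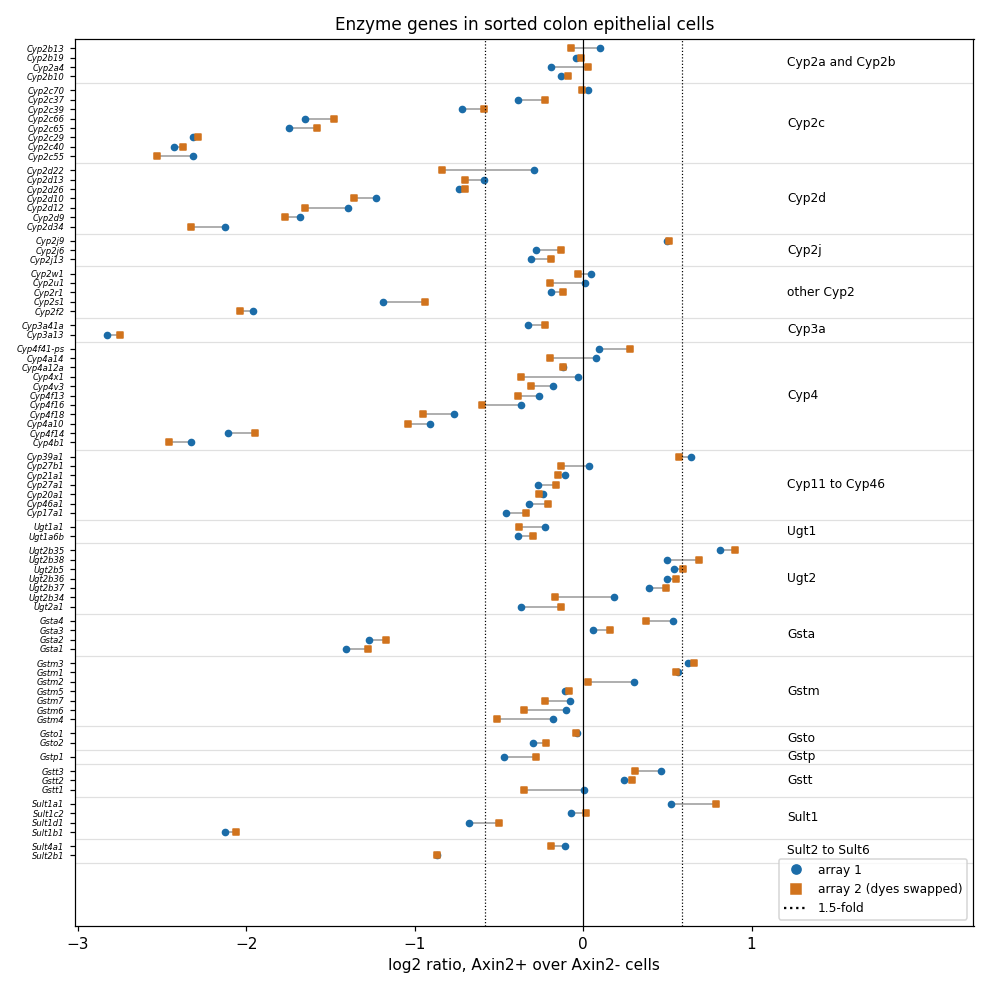
Log2 ratio of Axin2+ over Axin2- cells for the 79 enzyme genes measured, grouped by family, with array 1 as circles and array 2, with the dyes swapped, as squares joined by a line. Dotted lines mark 1.5-fold; the Cyp2c and Cyp2d genes reach far to the left, and 5 of 7 Ugt2 genes lie to the right of 0 on both arrays.

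Of the Cyp2c oxidases, which act on drugs and turn arachidonic acid into epoxides, 8 of 11 were measured, 6 were past 1.5-fold lower and none was higher on both arrays. *Cyp2c55*, an arachidonic acid oxidase known from the colon, had log2 intensities of 11.55 and 11.52 in Axin2+ cells and of 13.87 and 14.05 in Axin2- cells. Its log2 ratios were -2.32 and -2.53, a 5.37-fold lower level. The *Cyp2c40* probe, which is listed for 4 genes of the cluster, gave 10.09 and 10.12 in Axin2+ and 12.52 and 12.50 in Axin2- cells, with ratios of -2.43 and -2.38. A further *Cyp2c40* probe, listed for 2 genes, gave -2.12 and -2.10. *Cyp2c29* (-2.32 and -2.29), *Cyp2c65* (-1.75 and -1.58) and *Cyp2c66* (-1.65 and -1.48) followed in size. The *Cyp2c66* probe is listed for both *Cyp2c65* and *Cyp2c66*. In mm9 it lies at chr19:39168057-39168116, next to the *Cyp2c65* probe at chr19:39168290-39168349. They may read the same gene, so the 6 lower Cyp2c genes are not 6 separate readings. *Cyp2c39* was not well above background in Axin2+ cells on either array. Its ratios were -0.72 and -0.59, and in the mean of the arrays it was at least 1.57-fold lower. The same cluster also held *Cyp2c37* at -0.39 and -0.23 and *Cyp2c70* at 0.031 and -0.0082, so the difference did not extend to every gene of it.

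All 7 Cyp2d genes, relatives of a human enzyme that oxidises many medicines, were measured and lower on both arrays, and 6 were past 1.5-fold. *Cyp2d34* had log2 intensities of 9.70 and 9.78 in Axin2+ cells against 11.84 and 12.11 in Axin2- cells, and ratios of -2.13 and -2.33. *Cyp2d9*, which in the male liver hydroxylates testosterone, had ratios of -1.68 and -1.77, and its other probe, shown above, had a mean of -1.69. *Cyp2d12* (mean -1.52), *Cyp2d10* (-1.30), *Cyp2d26* (-0.72) and *Cyp2d13* (-0.64) were closer to 0. *Cyp2d22* fell short of the threshold at -0.29 and -0.84, and its arrays differed more than those of any other Cyp2d gene. With probes shared in the cluster, these 7 values are not 7 independent readings.

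The largest difference of all 79 was that of *Cyp3a13*, of the subfamily that oxidises the widest range of drugs and steroids. Its log2 intensities were 8.47 and 8.69 in Axin2+ cells and 11.31 and 11.44 in Axin2- cells, its ratios were -2.83 and -2.75, and its level was 6.92-fold lower. *Cyp3a41a*, the other Cyp3a gene measured there, had ratios of -0.33 and -0.23 from a probe listed for 2 genes. Among the Cyp4 genes, which hydroxylate the end of fatty acid chains, 4 of 11 measured were past 1.5-fold lower. *Cyp4b1*, which also activates some plant and fungal toxins, had ratios of -2.33 and -2.46, and *Cyp4f14*, which inactivates leukotriene B, had -2.11 and -1.95. *Cyp4a10* (-0.91 and -1.04) and *Cyp4f18* (-0.77 and -0.95) were the other 2. The second *Cyp4a10* probe gave a mean of -0.25, so the size for that gene depends on the probe.

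Other Cyp2 genes were split. *Cyp2f2*, known for activating naphthalene in the airway, had ratios of -1.96 and -2.04, and *Cyp2s1*, an oxidase of epithelia outside the liver, had -1.19 and -0.94. *Cyp2r1*, a vitamin D hydroxylase, was close to 0 at -0.19 and -0.12. Of 3 Cyp2j genes measured, which form epoxides of arachidonic acid, *Cyp2j6* had -0.28 and -0.13 while *Cyp2j9* was higher at 0.50 and 0.51, short of 1.5-fold. The 4 Cyp2a and Cyp2b genes measured had means from -0.11 to 0.017. Such small ratios depended on the processing. The median of these 4 was -0.057, but -0.35 by the software's ratios, and that of the 5 other Cyp2 genes was -0.16, but -1.05. Cyp1 genes, targets of the aryl hydrocarbon receptor, were not measured in the sorted cells.

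Of the 7 genes measured in the Cyp11 to Cyp46 families, 1 was past 1.5-fold, *Cyp39a1*, which hydroxylates an oxysterol on the way to bile acids. Its log2 intensities were 9.69 and 9.63 in Axin2+ and 9.05 and 9.06 in Axin2- cells, with ratios of 0.64 and 0.57, and its second probe gave a mean of 0.36. *Cyp17a1*, which leads to androgens, had ratios of -0.46 and -0.34. *Cyp27a1* and *Cyp46a1*, which add hydroxyl groups to the side chain of cholesterol, had means of -0.22 and -0.27. *Cyp27b1*, which makes active vitamin D, stood at 0.033 and -0.13, near background.

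**Figure D2:**
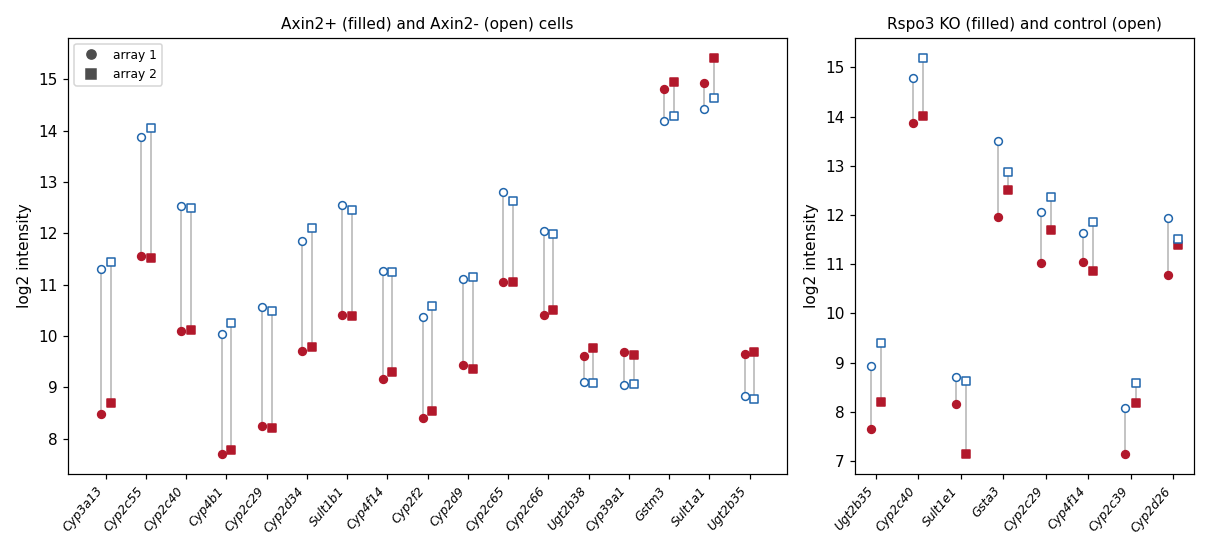
Log2 intensity after within-array loess and between-array scaling for the enzyme genes named by size, with Axin2+ (left) or Rspo3 KO (right) as filled symbols and Axin2- or control as open ones; circles are array 1 and squares array 2. Levels are to be compared within a gene only; on the left the 12 genes from Cyp3a13 to Cyp2c66 have open symbols on top and the 5 from Ugt2b38 on have filled ones on top.

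Of the 7 Ugt2 genes measured, which encode glucuronidating enzymes, 5 had ratios above 0 on both arrays, 1 below and 1 went opposite ways, and the family median was 0.53. *Ugt2b35* and *Ugt2b38* were past 1.5-fold higher. *Ugt2b35* had log2 intensities of 9.64 and 9.68 in Axin2+ cells and of 8.83 and 8.78 in Axin2- cells, and ratios of 0.81 and 0.90. *Ugt2b38* had 0.50 and 0.69, and just under the threshold were *Ugt2b5* (0.54 and 0.59), *Ugt2b36* (0.50 and 0.55) and *Ugt2b37* (0.39 and 0.49). The *Ugt2b36* and *Ugt2b38* probes are among those listed for several Ugt2b genes, so these readings overlap. *Ugt2b34* was at 0.18 and -0.17. Under median centring of the arrays 0 of these genes passed 1.5-fold. In the Ugt1 locus, where alternative first exons share the remaining ones, the probe of the shared part (named *Ugt1a6b*, listed for 4 genes) gave -0.39 and -0.30. *Ugt1a1*, which conjugates bilirubin, gave -0.23 and -0.38.

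Glutathione S-transferases were divided within their classes. In the alpha class, the *Gsta1* and *Gsta2* probes gave -1.41 and -1.28, and -1.27 and -1.17, while *Gsta3*, which protects against aflatoxin in the liver, gave 0.056 and 0.16. *Gsta4*, which acts on products of lipid peroxidation, was at 0.53 and 0.37, short of 1.5-fold. All 7 mu class genes were measured, 3 with ratios above 0 on both arrays and 4 below, and only *Gstm3* was past 1.5-fold. *Gstm3* had log2 intensities of 14.81 and 14.94 in Axin2+ cells and of 14.19 and 14.28 in Axin2- cells, with ratios of 0.62 and 0.66, and *Gstm1* had ratios of 0.56 and 0.55. *Gstm4* had -0.18 and -0.51, and the 2 *Gstm6* probes went opposite ways with means of -0.23 and 0.039. *Gstp1* (-0.47 and -0.28, from a probe also listed for *Gstp2*), *Gsto1* (-0.040 and -0.044) and *Gstt3* (0.46 and 0.31) were within 1.5-fold.

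Of 6 sulfotransferases measured, 3 were past 1.5-fold lower and 1 higher. *Sult1b1*, which sulfates phenols and thyroid hormone, had log2 intensities of 10.41 and 10.38 in Axin2+ cells and of 12.55 and 12.45 in Axin2- cells. Its ratios were -2.13 and -2.06, a 4.28-fold lower level, and its second probe gave a mean of -1.29. *Sult1d1*, which acts on catecholamines, had -0.68 and -0.50, and *Sult2b1*, which acts on cholesterol and other hydroxysteroids, had -0.87 on both arrays. *Sult1a1*, the main phenol sulfotransferase, was higher in Axin2+ cells, at 14.93 and 15.42 against 14.41 and 14.63, with ratios of 0.52 and 0.79. Without array 2, *Sult1a1* and *Ugt2b38* no longer passed 1.5-fold, and 3 genes remained higher. Without array 1, *Cyp39a1* (0.57) no longer passed and *Ugt2b5* (0.59) did. Past 1.5-fold higher on each array by itself were 2 enzyme genes, *Ugt2b35* and *Gstm3*. *Sult1c2* was at -0.073 and 0.018.

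Other genes of these pathways were taken from lists. Of 8 genes listed as partners of Cyp enzymes, most of them electron donors, 1 was past 1.5-fold, *Por*, at -0.66 and -0.73. Of 11 measured genes for the supply or turnover of conjugation cofactors, 4 were lower and none higher. *Ugdh*, which makes UDP-glucuronic acid, had -1.29 and -1.19, and *Slc35d1*, which carries it into the endoplasmic reticulum, had -1.78 and -1.55. *Papss2*, which makes the sulfate donor, had -1.26 and -1.21, and the sulfate transporter *Slc26a2* had -0.58 and -0.81. Of 33 other drug metabolising enzymes measured, 13 were lower and none higher. The carboxylesterases *Ces2e* (mean -2.76), *Ces2c* (-2.56) and *Ces2a* (-1.89) and the retinal dehydrogenase *Aldh1a1* (-2.07) led this group. Of 16 other steroid enzymes and receptors, 5 were lower, with *Hsd17b2*, which inactivates estradiol and testosterone, at -2.31 and -2.06 and *Hsd11b2*, which inactivates glucocorticoids, at -0.87 and -1.29. Of 13 transporters, 6 were lower, among them the bile acid carriers *Slc10a2* (mean -2.44), *Slc51a* (-2.42) and *Slc51b* (-2.15) and the efflux pumps *Abcc3* (-1.45) and *Abcg2* (-1.47). Of 24 receptors and regulators measured, none was lower and 2 were higher, *Nr5a2* (0.56 and 0.98) and the vitamin D receptor *Vdr* (0.61 and 0.57). Each of these counts stands against the 6.98% of all genes lower and 7.84% higher given above.

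Markers of cell types differed between the same pools. Of 12 surface enterocyte markers, all measured, 10 were past 1.5-fold lower in Axin2+ cells, with a median of -2.36. Their summed intensity was 58600 and 54600 in Axin2+ cells against 186000 and 163000 in Axin2- cells. Of 10 stem cell markers measured 8 were higher and none lower, with a median of 1.09, and of 8 proliferation markers 6 were higher, with a median of 0.75. Of 8 goblet cell markers 5 were lower (median -1.25), of 7 enteroendocrine markers 6 (median -2.11) and of 4 measured tuft cell markers 2 (median -0.86). The summed enteroendocrine intensity was 11000 and 10600 in Axin2+ cells against 54800 and 56400 in Axin2- cells. The 6 epithelial markers had a median of -0.037, with 1 of them, *Krt8*, past 1.5-fold lower. Hepatocyte markers were close to background, with 3 of 5 measured and a summed intensity of 264 to 298 per channel. The part of these cell types in the enzyme ratios was not tested. In such pools, fewer cells of a type and less RNA per cell cannot be told apart.

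Promoters were read for the genes that were lower together, from 250 bases before to 50 after the RefSeq start in build GRCm38.p6, and 100 of the 125 enzyme genes had one. The 60 bases before the start are shown for 5 Cyp2c and Cyp2d genes, with TATAAA (read on either strand, so also TTTATA) and the direct repeat AGGNCANAGGNCA, a form bound by nuclear receptors, in capitals.
Cyp2c29: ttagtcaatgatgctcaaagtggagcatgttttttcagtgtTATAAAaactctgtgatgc
Cyp2c55: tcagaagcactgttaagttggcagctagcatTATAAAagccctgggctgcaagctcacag
Cyp2d9: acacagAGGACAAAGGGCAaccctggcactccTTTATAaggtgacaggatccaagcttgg
Cyp2d10: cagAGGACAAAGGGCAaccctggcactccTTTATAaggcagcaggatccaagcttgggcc
Cyp2d26: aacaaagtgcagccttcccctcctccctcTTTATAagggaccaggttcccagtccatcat
They lie at chr19:39287025-39287084 (plus strand), chr19:39006959-39007018 (plus), chr15:82452317-82452376 (plus), chr15:82407195-82407254 (minus) and chr15:82794246-82794305 (minus). TATAAA was found in 11 of 20 genes that were lower in Axin2+ cells and have a promoter in the table (55%), in 18 of 62 measured genes (29%), in 35 of all 100 (35%) and in 15.7% of 27025 genes. Apart from *Gsta2* and *Sult1d1*, these 11 are Cyp2c and Cyp2d genes, close copies within their clusters, so they are not independent occurrences. The direct repeat was found in the promoters of 2 enzyme genes, *Cyp2d9* and *Cyp2d10*, and in 0.451% of all genes. It starts 54 and 57 bases before the start in these 2, whose sequences are near copies of each other, so they count as 1 occurrence rather than 2. The dioxin response motif TNGCGTG was found in 2 of 100 enzyme genes (2%) against 5.84% of all, and both are among the 20 lower genes (10%). TGACNNNGC, the core of the antioxidant response element, was found in 9 (9%) against 14% of all, and in 4 of the 20 (20%). GTTAAT, a half-site of HNF1 factors, was found in 16 (16%) against 8.24% of all, in 4 of the 20 (20%) and in 4 of the 8 genes lower in the KO mice described below (50%). Among the 62 measured genes the shares were 3.23% for TNGCGTG, 12.9% for TGACNNNGC and 12.9% for GTTAAT. A match is a description of these letters and not of a bound site.

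In the *Rspo3* KO colon no enzyme gene passed the test. With limma on 2 pairs, 0 of 70 measured genes had an adjusted p under 0.05, against 0.229% of all 15284 genes, and 8 (11.4%), all of them lower, had an unadjusted p under 0.05, against 4.57% of all genes. By size, 8 were lower in the KO mice by more than 1.5-fold in the mean with both pairs alike, which is 11.4%, against 2.45% of all genes, and none was higher, against 1.85%. Of the 8, 4 were past 1.5-fold in each pair by itself, 5.71% of the 70 against 1.16% of all genes. On both pairs 31 of the 70 were lower and 11 higher, and 28 (40%) went opposite ways, compared with 55.9% of all genes. The median was -0.061, against -0.011 over all genes. In a fit over all 4 arrays with a dye term, in which the spread comes in part from the technical repeat of the sorted cells, 5 genes had an adjusted p under 0.05.

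**Figure D3:**
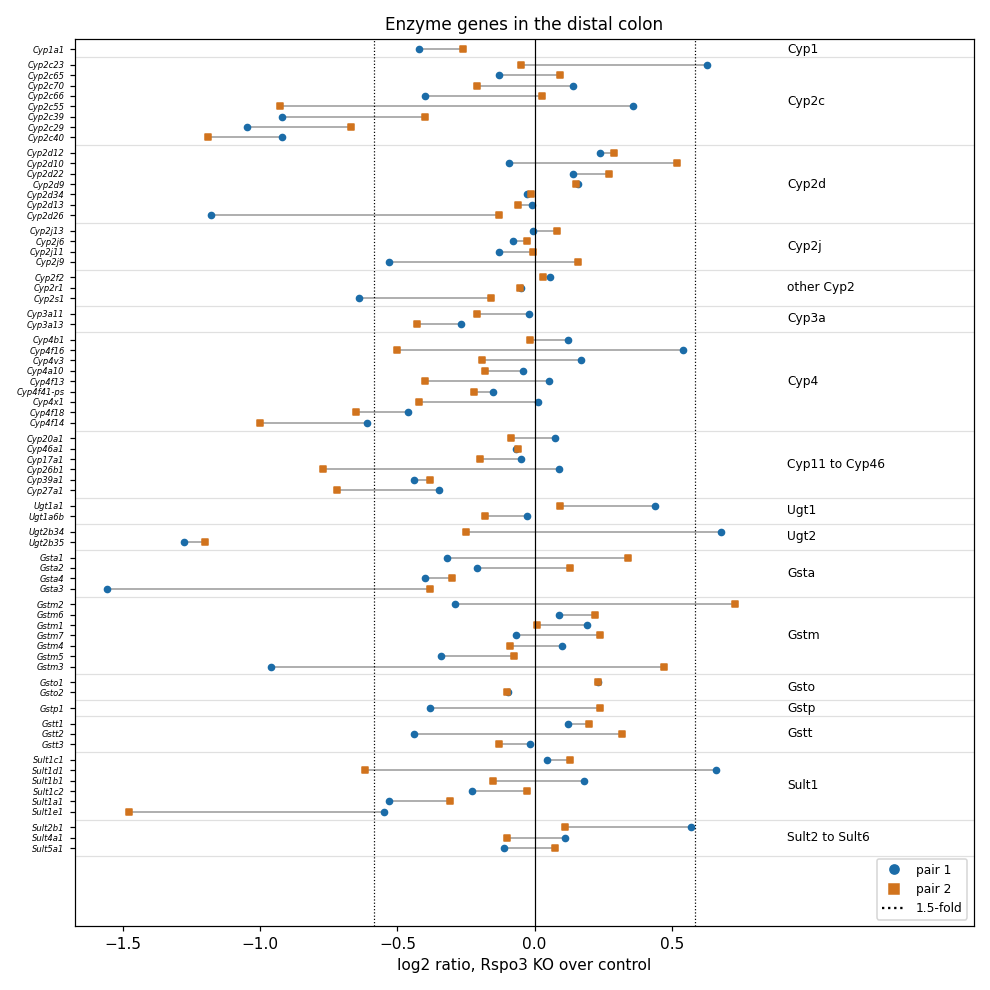
Log2 ratio of Rspo3 KO over control for the 70 enzyme genes measured in the distal colon, grouped by family, with pair 1 as circles and pair 2 as squares joined by a line. Dotted lines mark 1.5-fold; Ugt2b35, Cyp2c40, Cyp2c29 and Cyp4f14 lie left of the line in both pairs, and many genes have a pair on each side of 0.

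*Ugt2b35* had the lowest adjusted p of the 70. Its log2 intensities were 7.65 and 8.20 in the KO mice and 8.93 and 9.40 in their controls, and its ratios were -1.28 and -1.20, a mean of -1.24 with an SE of 0.228 and an adjusted p of 0.147 by limma with Benjamini-Hochberg adjustment. Both KO mice were below both control mice. The *Cyp2c40* probe gave 13.86 and 14.01 in KO and 14.79 and 15.20 in control mice, with ratios of -0.92 and -1.19 and an adjusted p of 0.278. Its further probe gave -1.14 and -0.73. *Cyp2c29* had ratios of -1.05 and -0.67 (limma adjusted p = 0.521), and *Cyp4f14* of -0.61 and -1.0 (0.610).

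The other 4 of the 8 passed by the mean with 1 pair short of 1.5-fold. *Sult1e1*, which inactivates estrogens by sulfation and was measured only in the KO arrays, had log2 intensities of 8.15 and 7.14 in KO and 8.70 and 8.62 in control mice, with ratios of -0.55 and -1.48 and a limma adjusted p of 0.538. For *Gsta3* the ratios were -1.56 and -0.38 (0.720), and its second probe had a mean of -0.82. *Cyp2c39* had -0.92 and -0.40 (0.914). *Cyp2d26* rested on pair 1 almost alone, with -1.18 against -0.13. The pairs differed from each other by 1.18 for *Gsta3* and 1.04 for *Cyp2d26* on the log2 scale, more than the mean ratio of either gene.

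Across families, 3 of 8 Cyp2c genes and 1 each of the Cyp2d, Cyp4, Ugt2, Gsta and Sult1 families made up the 8. The rest of the Cyp2d cluster was close to 0 in the KO mice, with *Cyp2d34* at -0.026 and -0.014, *Cyp2d9* at 0.16 and 0.15 and *Cyp2d12* at 0.24 and 0.29. *Cyp2f2* (0.056 and 0.030) and *Gsto1* (0.23 in each pair) also agreed closely between pairs and were near 0. *Cyp3a13* was lower at -0.27 and -0.43, *Cyp39a1* at -0.44 and -0.38, *Sult1a1* at -0.53 and -0.31, and *Cyp27a1* at -0.35 and -0.72, each short of 1.5-fold in the mean. *Cyp1a1*, the classic target of the aryl hydrocarbon receptor, was measured here and had -0.42 and -0.26. Its mean of -0.34 depended on the processing, with -0.15 with all spots in the background fit and -0.98 by the software's ratios. *Cyp4f18* (-0.46 and -0.65) had an unadjusted p of 0.0445.

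For several bright probes the pairs disagreed in sign. *Gstm3* had ratios of -0.96 and 0.47, *Gstm2* of -0.29 and 0.73, *Cyp2c55* of 0.36 and -0.93, *Sult1d1* of 0.66 and -0.62, and *Cyp4f16* of 0.54 and -0.50. Surface enterocyte markers were mixed, with medians of 0.62 in pair 1 and -0.33 in pair 2 over 9 measured markers, of which 2 were higher in both pairs, 2 lower in both and 5 opposite. *Slc26a3* was at 0.65 and -1.23, and *Muc3* ran the other way at -0.011 and 0.41. Of 8 proliferation markers 7 went opposite ways, with medians of -0.62 and 0.37. Whether the cell makeup of the tissue pieces differed between the pairs was not tested. The dyes were also reversed between the pairs, so differences of mice and of dye cannot be told apart in these signs. The brightest probes of *Gstm1* and *Gstp1* were left out as outlier spots on the KO arrays, so their values there, 0.19 and 0.010 for *Gstm1* and -0.38 and 0.24 for *Gstp1*, come from other probes.

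Among the other pathway genes 0 passed the test in the KO mice. By size, 4 of 32 other drug metabolising enzymes were lower (*Ces1g*, mean -1.23, *Fmo5*, *Ces1d* and *Ces2a*) and *Aldh1a3* was higher (1.93 and 1.41, limma adjusted p = 0.0632). *Fmo5* came from 1 pair, at -0.078 and -1.96. The 8 partners of Cyp enzymes and the 11 cofactor genes had none past 1.5-fold. Among 15 other steroid enzymes and receptors *Srd5a2* was lower, and among 12 transporters *Slc10a2* was. Of 25 receptors and regulators, *Maff* was higher at 0.89 and 0.59 and 0 were lower. These counts, and those of the markers below, stand against 2.45% of all genes lower and 1.85% higher.

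Cell type markers moved in the KO mice as well. All 4 measured B cell markers of 7 were lower, with *Ms4a1* at -2.75 and -2.27 (limma adjusted p = 0.0154), and their summed intensity was 736 and 778 in KO against 3730 and 2070 in control mice. Of 4 mast cell markers 3 were higher, with *Cma1* at 1.84 and 1.86 (limma adjusted p = 0.0280). Of 10 stem cell markers 6 were lower and none higher. The 4 epithelial markers measured had a median of -0.024 and summed to 259000 to 271000 in every channel. The part of these cells in the 8 enzyme differences was not tested.

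The 2 experiments used different RNA and shared no sample, and 62 enzyme genes can be set side by side. Of the 8 genes lower in the KO mice, 7 were measured in the sorted cells, and there 5 were lower in Axin2+ cells (*Cyp2c40*, *Cyp2c29*, *Cyp4f14*, *Cyp2c39* and *Cyp2d26*), *Gsta3* was at 0.11 and *Ugt2b35* was higher. These 5 are 71.4% of the 7 and 20.8% of the 24 genes lower in Axin2+ cells, all 24 of which were measured in the KO arrays. The 24 are 38.7% of the 62. Over all 13546 genes measured in both, the genes lower in both were 13% of those lower in the KO mice and 4.29% of those lower in Axin2+ cells. Of those 24, 11 were lower in both KO pairs, 4 higher in both and 9 opposite, with a median KO ratio of -0.035. Over the 62 genes the mean ratios had a Pearson r of 0.06 and a Spearman rho of -0.06, against an r of -0.17 over the 13546 genes. With the pairs taken singly, the r of the 62 was -0.07 for pair 1 and 0.18 for pair 2. These are descriptions of genes that share clusters and probes and are not independent. Of the 62, 4 were past 1.5-fold higher in Axin2+ cells, and of these only *Ugt2b35* was past 1.5-fold lower in the KO mice. Under median centring it did not pass 1.5-fold in the sorted cells. Among 10 measured stem cell markers, *Lgr5*, *Smoc2*, *Ephb3*, *Cdca7* and *Rnf43* passed in the same 2 directions and the others did not. How many of all genes did so was not counted.

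**Figure D4:**
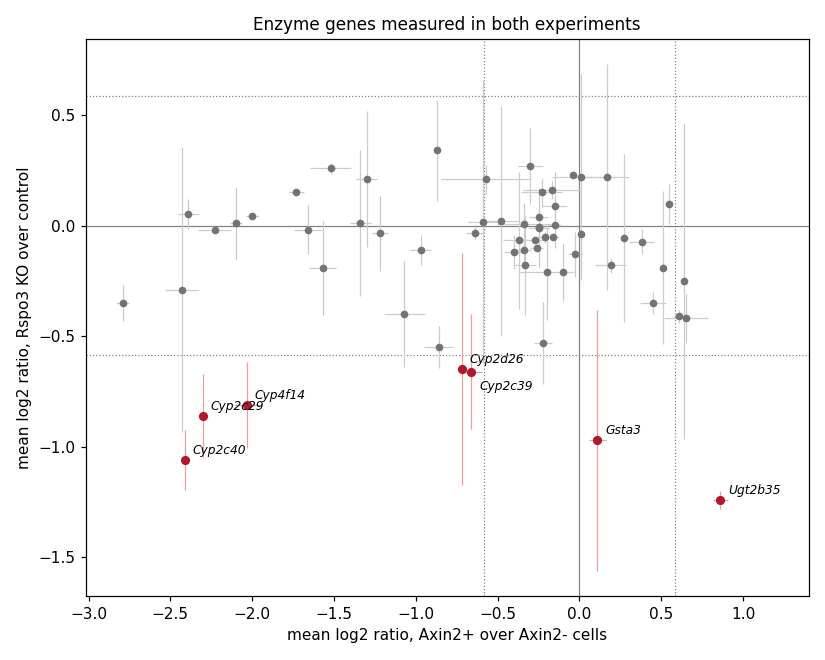
Mean log2 ratio of Axin2+ over Axin2- cells (horizontal) against that of Rspo3 KO over control (vertical) for the 62 enzyme genes measured in both, with bars from array to array or pair to pair. Dotted lines mark 1.5-fold and red points the 7 genes past it in the KO mice; Cyp2c40, Cyp2c29 and Cyp4f14 lie at the lower left and Ugt2b35 at the lower right.

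Which genes could be seen also differed. *Ugt2b5*, *Ugt2b37* and *Ugt2b38* were well above background in all 4 channels of the sorted cells and in 0 of 4 channels of the KO arrays, and *Ugt2b36* was in 4 and in 1. *Sult1e1*, *Cyp1a1*, *Cyp26b1*, *Cyp2c23*, *Cyp2j11*, *Cyp3a11*, *Sult1c1* and *Sult5a1* were measured only in the KO arrays. The labels name distal colon for the KO tissue and no part of the colon for the sorted cells, and the 2 experiments were run on different slides and from different kinds of RNA, so that region, cell sorting and slide cannot be told apart here.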

How the data were processed

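The samples were the 4 dual-color arrays described above, grouped by their labels. The authors deposited for each spot the intensity of signal and background in either dye and a log10 ratio (Cy5 over Cy3), made with Agilent Feature Extraction, per the labels and file headers. The same log10 ratio fills the series' table the authors deposited. It served as an alternative, and the p-values beside it were not used here.

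With limma 3.58.1 in R 4.3.3, normexp (offset 50) corrected the background and loess within each array gave the log2 ratios. Control spots were left out after the background fit and outlier spots (124 to 510 per array) throughout. Replicate spots were averaged, all ratios were written as KO over control or Axin2+ over Axin2-, and the brightest probe stood for a gene. Names came from RefSeq (GRCm38.p6) for all 170 probes, 158 by accession and 12 by symbol. The probe names of the 2 array designs differ, and a name that meets the rule in either was taken. Positions are mm9 as in the files.

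The KO ratios were tested against 0 with limma (lmFit, eBayes) with Benjamini-Hochberg adjustment over 15284 genes. With 1 residual degree of freedom, the spread leans on all genes, and p-values measure the spread between 2 pairs of mice. The dyes were reversed between the pairs and the fit had no dye term, so this spread holds mouse and dye differences together. The step was checked on simulated data. The changes planted there were larger than the mean ratio of any enzyme gene in the KO mice, so smaller ones were not covered. The sorted cells got no test. Levels are log2 intensities after loess and scaling between arrays. The number of arrays limits the precision.

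Named are the 12 largest rises and falls (Axin2) and the 8 largest (KO) past 1.5-fold with both arrays alike, the brightest gene of each family, list genes past 1.5-fold, and the genes that check the labels, *Rspo3*, *Lgr5*, *Axin2* and *Krt20*. Other genes were named after their values were seen. The genes and lists were chosen with earlier results of these data known. Alternatives were the software's ratios, the series' table, no background correction, an offset of 16, all spots in the background fit, median centring, other filters, the mean over probes, each array left out, a 2-fold threshold, a fit over 4 arrays, and, chosen after seeing the data, leaving out probes listed for several genes.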

Additional observations from a re-analysis of the deposited data

How the results depend on the processing

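The direction of the Axin2 result held under every alternative run, with 17 to 29 genes lower and 0 to 6 higher, while the share of all genes lower ranged from 2.54% (2-fold threshold) to 15.4% (the software's ratios, which gave the 29). With a 2-fold threshold 17 were past it, 17 lower and 0 higher, and with median centring 0 were higher. Leaving out 1 array gave 27 to 30 genes past 1.5-fold, 24 to 25 lower and 3 to 5 higher. In the KO mice, the software's ratios and the series' table gave 13 genes past 1.5-fold, 12 lower and 1 higher, against 5.73% of all genes lower. With a 2-fold threshold 3 were past it, all 3 lower, against 0.635% of all genes. Leaving out 1 pair gave 11 to 12 genes, 9 to 10 lower and 1 to 3 higher, against 5.61% (without pair 1) and 7.49% (without pair 2) of all genes lower and 4.52% and 8.16% higher. By limma, 1 enzyme gene was called with an offset of 16 (*Ugt2b35*, adjusted p = 0.02) and 5 in the fit over 4 arrays, *Ugt2b35*, *Cyp2c40*, *Sult1e1*, *Cyp2c29* and *Gsta3*, and 0 under the other 8 alternatives. Over all genes limma called 35, and between 0 and 276 under these alternatives, with 0 without a filter on dim probes, 1 with all spots in the background fit, 3 with the mean over probes, 7 with median centring, 69 without background correction, 120 with an offset of 16, 121 with the software's ratios and 276 in the fit over 4 arrays. By limma, the enzyme genes with an unadjusted p under 0.05 numbered 0 with median centring and 5 with all spots in the background fit. Under the other alternatives they numbered 8 to 13, against 8 in the main run. The KO test takes KO over control within an array. A pair is thus a KO and a control mouse on the same array, and the labels give no other matching of these mice. No paired analysis was possible beyond it because no unpaired samples remain, and the Axin2 arrays repeat the same RNA. Dim probes limit what can be seen, since 46 and 55 of the 125 enzyme genes were not measured in the Axin2 and KO arrays.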

Other observations

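Another 3 probes carry an older name in the array files but a current symbol that begins in the same way, and they were not counted above. *Gstp3* (named BC021614 in the files) had log2 ratios of -0.36 and -0.40 in the sorted cells and of -0.098 and 0.36 in the KO pairs. *Sult2a8* (2810007J24Rik) had -0.34 and -0.031 and, in the KO pairs, -0.22 and 0.50. *Sult3a2* (Gm4794) was above background in 0 of 4 channels in either experiment.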
